A study of Mus musculus with 28 samples.

Results

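The left ventricles (LV) of Pkp2-cKO mice that had received the low dose of TN-401 were set against the LV of Pkp2-cKO mice that had received vehicle only, to ask which transcripts differed after transfer of human PKP2. The comparison took every LV library labelled with the 3E13 dose and every LV library labelled as knockout with HBSS, which gave 4 libraries of each group, 8 of the 28 libraries of the series. TN-401 is an AAV9 vector that carries a codon-optimised human PKP2 under the cardiac troponin T promoter. It was injected once, retro-orbitally, at 3E13 vector genomes per kg (vg/kg), 1 week before tamoxifen. Both knockout groups were C57BL6 mice that carried the tamoxifen-activated αMyHC-Cre-ER(T2) transgene, which is driven by a cardiomyocyte promoter, and Pkp2 fl/fl alleles, and both received tamoxifen, so the deletion was common to them and cells other than cardiomyocytes were expected to keep Pkp2. The vehicle group (cKO) received HBSS in place of the vector. WT, used as the outer reference, were Cre-negative Pkp2 fl/fl littermates given HBSS, with 5 LV libraries. Each library came from a separate animal of a study of 10 weeks. The time at which each vehicle-treated knockout was collected is not given separately in the sources used here, so time after induction and treatment cannot be told apart.

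Plakophilin-2 is an armadillo-repeat protein of the desmosome, the junction that ties the intermediate filaments of neighbouring cardiomyocytes together at the intercalated disc. The same disc holds the gap junctions and the sodium channel that pass the electrical impulse from cell to cell. Loss of PKP2 is the most frequent genetic cause of arrhythmogenic right ventricular cardiomyopathy (ARVC), in which muscle is lost, connective tissue takes its place, inflammatory cells enter and arrhythmias arise in both ventricles.

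Values are CPM, read counts scaled to library size with TMM factors, and differences are log2 fold changes of 3E13 over cKO with their standard error (SE) from edgeR's quasi-likelihood test, fitted over all 16 LV libraries of the series. These include 3 of Pkp2-cKO mice given TN-401 at 6E13 vg/kg, which entered the scaling and the estimate of spread and are not described here. A gene was called at a Benjamini-Hochberg adjusted p under 0.05 over the 16410 genes tested, and adjusted p below are of this test unless another is named. Values of single animals are given in the order 181, 182, 252 and 253 for 3E13, and 177, 180, 257 and 264 for cKO. In these bulk samples fewer cells of a type and less RNA per cell cannot be told apart, which touches every muscle, fibroblast and immune gene below.

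The LV libraries held 21013323 to 24237909 estimated reads at 3E13, against 23610781 to 27919280 in cKO. The groups differed in spread, since the common biological coefficient of variation was 0.313 over the 3E13 libraries, 0.452 over the cKO libraries and 0.234 over the WT libraries. One library stood apart, that of cKO animal 177, whose counts differed from those of the other cKO animals by a chi-square of 181 to 308 per degree of freedom, where the other cKO pairs gave 59.3 to 83.2 and the 3E13 pairs 19.1 to 53.2. Of 126 called genes looked at, 114 kept the call without it, and most of the calls lost are given both ways. Counts of calls in the lists that moved by over 1.5 times are also given with and without it. List medians without it are given in part, and moved to 0.06 for the gap junction and sodium channel list, −0.45 for fetal programme and wall stress genes and 0.21 for MHC class II genes, where they were 0.20, −0.11 and −0.04 with it. The 8 defining cardiomyocyte genes summed to 32137 to 39683 CPM at 3E13, against 11338 to 29985 CPM in cKO and 37582 to 40952 CPM in WT, so the label of ventricular muscle held in all libraries and 177 had the lowest muscle sum.

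The vector was read in every treated heart. The human PKP2 sequence had 352, 167, 302 and 364 CPM at 3E13 and 0 in every cKO and WT library, and its lowest value was at least 1654-fold higher than the largest amount that a count of 0 allowed in any cKO library (3 counts per library). Mouse Pkp2 (chromosome 16) averaged 37.8 ± 5.72 CPM at 3E13 and 42.8 ± 10.7 CPM in cKO (SD, n = 4 each), with 112 ± 6.90 CPM in WT (n = 5). The 3E13 and cKO values overlapped (log2 fold change −0.18 ± 0.15 SE, adjusted p = 0.479, not called in any of the 8 fits that left out an animal). On the deposited TPM scale, which corrects for transcript length, the human transgene had 51.6 to 125.6 TPM and the mouse gene 11.6 to 14.3 TPM at 3E13, where mouse Pkp2 had 16.1 to 24.4 TPM in cKO and 31.5 to 38.8 TPM in WT. On log2(TPM + 1) mouse Pkp2 was thus called lower at 3E13 than in cKO, without overlap (−0.51, adjusted p = 0.0238, limma), where the median gene stood at −0.32. Animal 182 had the lowest transgene value on both scales, and the highest was 253 in CPM and 181 in TPM. Esr1, with which the ER(T2) part of the Cre could share reads, averaged 3.75 ± 0.525 CPM at 3E13, 4.69 ± 1.24 CPM in cKO and 1.74 ± 0.276 CPM in WT, and did not separate 3E13 from cKO (adjusted p = 0.356).

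Across the transcriptome, 1914 of the 16410 genes were called between 3E13 and cKO (11.7%). Of these, 895 rose at 3E13 (5.45% of genes tested) and 1019 fell (6.21%), with 170 of the rises and 392 of the falls beyond 2-fold. The 2 groups did not overlap in any library for 2307 genes (14.1%), of which 1413 were called. The median over all genes tested was −0.03. Between 3E13 and WT, which share the 3E13 libraries with the first comparison, 407 genes were called (2.48%), 320 of them higher at 3E13. The count against cKO depended on the samples fitted. A fit on the 8 libraries alone called 54 genes, all of them among the 1914, and 301 when cKO 177 was left out, whereas a fit that gave each group its own variance called 859. Leaving out each animal in turn gave 712 calls without 3E13 253 to 2675 without cKO 180 (1963 without cKO 177), and 635 genes kept their call in all 8 such fits. On log2(TPM + 1) 136 genes were higher and 3238 lower in place of 895 and 1019, and the median gene itself stood at −0.32 on that scale. Directions of small changes below are therefore relative to a scaling in which the median gene is near 0.

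The genes with the firmest separation came from several compartments of the heart. Of the genes called both in the whole LV fit and on the 8 libraries alone, those with the smallest adjusted p on the 8 libraries are described first. Igfbp7, a secreted binder of insulin-like growth factors (GRCm39 chr5:77493130-77555931, minus strand), had 106, 95.2, 111 and 96.0 CPM at 3E13, against 206, 194, 234 and 228 CPM in cKO and 50.4 to 60.6 CPM in WT. No treated heart came near the lowest cKO value, and all 4 stayed above every WT value. Igfbp7 fell by 1.08 on the log2 scale (± 0.09 SE, adjusted p = 3.65e-05, and 0.0247 on the 8 libraries alone), and remained 0.82 above WT (adjusted p = 0.000212). Its annotation overlaps Polr2b on the opposite strand, and the kit was stranded.

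Tgfbr1, the type I receptor that carries the TGF-beta signal (chr4:47353134-47414931, plus strand), had 35.9, 32.3, 37.5 and 34.9 CPM at 3E13, against 62.8, 63.3, 66.4 and 67.0 CPM in cKO and 23.4 to 28.2 CPM in WT. Each group held together tightly for this receptor. Tgfbr1 fell by 0.88 (± 0.11 SE, adjusted p = 0.000731). Ifngr1, the ligand-binding chain of the interferon-gamma receptor (chr10:19467697-19485977, plus strand), had 39.1, 38.3, 36.6 and 37.5 CPM at 3E13, against 66.4, 72.7, 58.0 and 81.2 CPM in cKO. It fell by 0.88 (± 0.10 SE, adjusted p = 0.00045), to a level not called different from the 28.9 to 33.2 CPM of WT (log2 fold change 0.29, adjusted p = 0.103).

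Lmod3, a leiomodin that nucleates the actin of muscle thin filaments (chr6:97213986-97230210, minus strand), moved the other way. It had 66.7, 61.2, 66.9 and 45.4 CPM at 3E13, against 11.8, 20.2, 15.8 and 12.7 CPM in cKO and 47.8 to 94.7 CPM in WT. Of the 4 treated hearts 3 lay within the WT range. Lmod3 rose by 1.99 (± 0.25 SE, adjusted p = 0.000801). Lrrc4b, a leucine-rich repeat adhesion protein known from synapses (chr7:44078023-44112775, plus strand), had 11.0, 10.7, 10.9 and 13.2 CPM at 3E13, against 2.88, 3.61, 4.38 and 3.04 CPM in cKO and 16.8 to 21.9 CPM in WT. Lrrc4b rose by 1.72 (± 0.15 SE, adjusted p = 3.65e-05) and stayed 0.73 below WT (adjusted p = 0.0119). Ppargc1b, which encodes the transcriptional coactivator PGC-1β of mitochondrial and lipid genes, had 55.6, 55.8, 71.0 and 65.9 CPM at 3E13, against 28.3, 28.7, 35.5 and 23.7 CPM in cKO and 51.2 to 72.2 CPM in WT. The rise of Ppargc1b was 1.10 (± 0.13 SE, adjusted p = 0.00065), although on log2(TPM + 1) it narrowly missed the threshold.

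The remaining genes of this group were mostly falls. Olfml3, a secreted olfactomedin-like matrix glycoprotein, fell by 1.20 to 14.8 to 18.8 CPM at 3E13, against 32.1 to 45.2 CPM in cKO. Pi15, a secreted protein of the CAP family, fell by 1.57, with 6.73 to 9.40 CPM at 3E13 and 18.8 to 33.2 CPM in cKO. Sec16b, which organises the exit sites of the endoplasmic reticulum, fell by 1.58, and the adhesion gene Kirrel fell by 1.17. In none of these was there overlap between 3E13 and cKO. Peg10, an imprinted gene derived from a retrotransposon, fell by 1.45, Mical1, whose product oxidises and disassembles actin filaments, by 0.95, and the secreted ribonuclease gene Rnase4 by 0.98. Rnase4 overlaps Ang on the same strand, so the division of reads between them is uncertain. Slc4a1ap was listed at 0 in all 4 cKO libraries and in 3 of the 5 WT libraries, with 4.5, 4.10, 1.66 and 5.03 CPM at 3E13, and no fold is given for it.

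**Figure D1:**
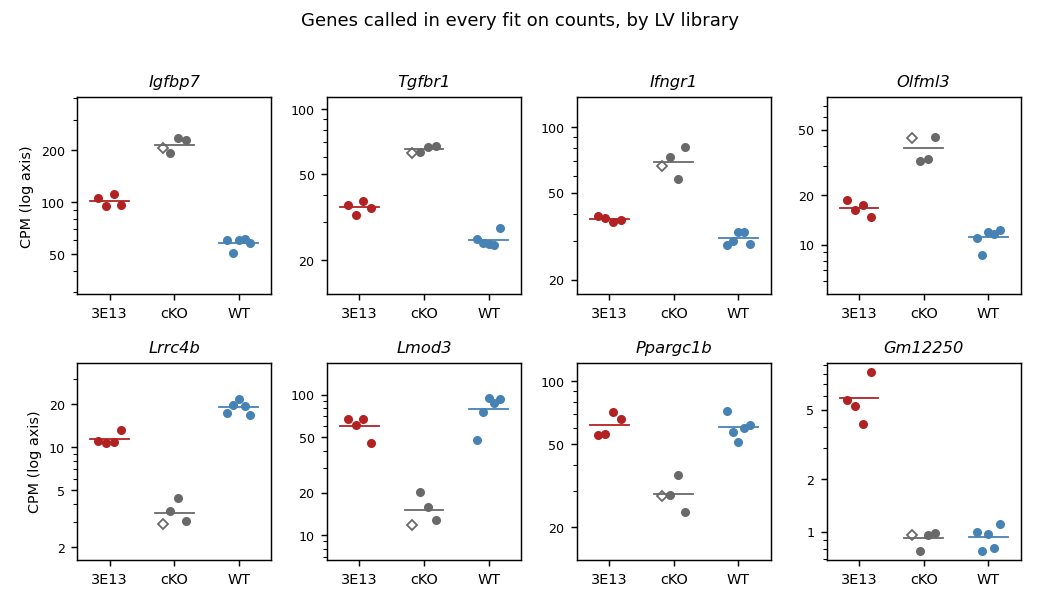
CPM of 8 genes in each LV library (log axis), with 3E13 left, cKO in the middle and WT right, a point for each animal, a bar for the mean and an open diamond for cKO 177. The 8 genes passed the test in every fit on counts that tested them, and in each panel all 3E13 points lie on one side of all cKO points, as for Igfbp7 with 95.2 to 111 CPM at 3E13 and 194 to 234 CPM in cKO.

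The lists of genes split by compartment. Muscle, respiratory and interferon lists had medians above that of all genes, and matrix, TGF-beta, macrophage and pattern receptor lists had medians below it. Of the 45 lists, the interferon-inducible GTPases had the largest share of rises, 10 of 15, against 5.45% of all genes, and the fibrillar and other collagens the largest share of falls among lists with at least 5 tested genes, 12 of 19, against 6.21%. In contrast, none of 28 genes of fatty acid uptake and oxidation, none of 13 T, NK and B cell markers, and 1 of 20 genes of the desmosome and intercalated disc were called. With a variance for each group the calls were 1 of the GTPases, 7 of the collagens, 7 of 20 macrophage markers and 9 of 24 complex I genes, and on the 8 libraries alone 1 GTPase and 1 collagen.

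**Figure D2:**
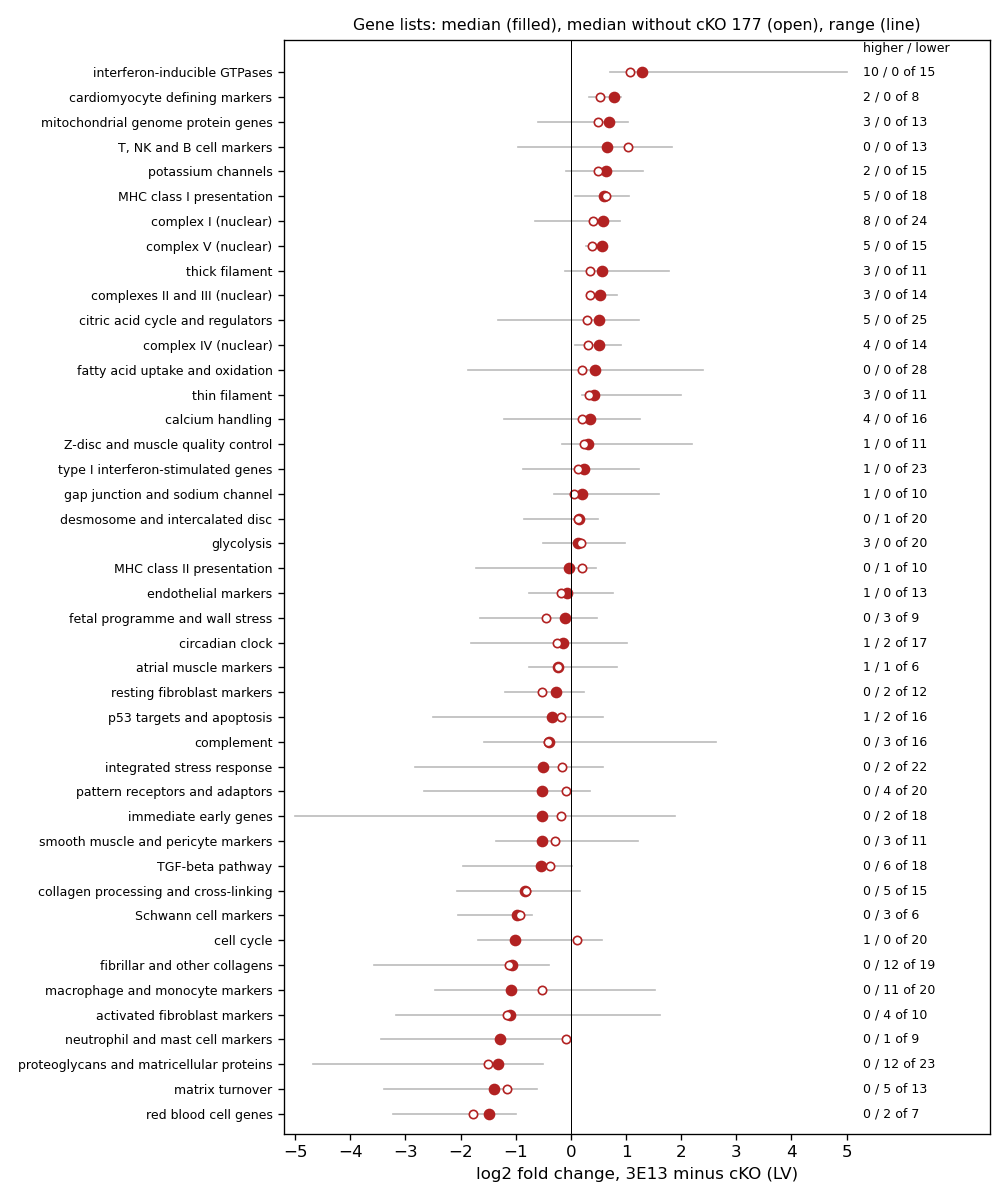
Log2 fold change of 3E13 over cKO in LV for the genes of each list with at least 5 tested genes, lists running down the page. Filled points are the list's median, open points the median without cKO 177, lines the range of its genes (drawn up to ±5), and the text at the right gives how many genes were higher and lower of those tested; the interferon-inducible GTPases (median 1.30) lie farthest to the right.

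Among the genes of conduction and excitation, the called rises were led by Gja1, which encodes connexin 43, the main gap junction protein of working ventricular muscle. Gja1 had 553, 496, 657 and 689 CPM at 3E13, against 401, 232, 389 and 212 CPM in cKO and 613 to 686 CPM in WT. Every treated heart exceeded every vehicle-treated knockout, and the cKO hearts fell into a higher pair (177 and 257) and a lower pair. Gja1 rose by 0.96 (± 0.19 SE, adjusted p = 0.00676) and was not called against WT (−0.12, adjusted p = 0.817). It was the only gene called of 10 of the gap junction and sodium channel list (median 0.20). Scn4b, a sodium channel β subunit, had 20.1, 5.0, 16.4 and 16.1 CPM at 3E13, against 0.728, 8.53, 2.97 and 6.93 CPM in cKO and 25.4 to 49.6 CPM in WT, and did not pass (log2 fold change 1.60 ± 0.58 SE, adjusted p = 0.0875).

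Of 15 potassium channel genes 2 rose and none fell (median 0.63), and 5 rose without cKO 177. Kcnj5, a subunit of the acetylcholine-gated inward rectifier, had 33.9 to 41.1 CPM at 3E13, against 14.9 to 26.4 CPM in cKO and 41.0 to 62.0 CPM in WT, and rose by 0.92 (adjusted p = 0.00423). Kcnk3, the TASK-1 background channel, had 200.0 to 245 CPM at 3E13, against 103 to 174 CPM in cKO, and rose by 0.63 (adjusted p = 0.0119). Abcc9, the sulphonylurea receptor of the ATP-sensitive channel, just missed the threshold at 0.72 ± 0.23 SE (adjusted p = 0.052, and 0.0282 without cKO 177).

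Of 16 calcium handling genes 4 rose and none fell. Jph2, junctophilin-2, which holds the sarcoplasmic reticulum against the T-tubule, had 321, 386, 329.6 and 316 CPM at 3E13, against 144, 218, 227 and 193 CPM in cKO and 336 to 374 CPM in WT. Its treated values overlapped the WT range, and Jph2 rose by 0.79 (± 0.13 SE, adjusted p = 0.00284), with a call in all 8 fits that left out an animal. The others were Hrc, the histidine-rich calcium-binding protein of the reticulum (1.24 ± 0.35 SE), Srl, the luminal protein sarcalumenin (0.64 ± 0.19 SE), and Asph, whose products include junctin (0.46 ± 0.13 SE). For Srl the treated animal 182 lay apart at 983 CPM, with 595 to 605 CPM in the other 3 treated hearts, and Srl lost its call without cKO 177 (adjusted p = 0.0506). Hrc and Srl were called in 3 of the 8 fits that left out an animal.

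In the sarcomere, 3 of 11 thick filament genes and 3 of 11 thin filament genes rose, and none fell. Mylk4, a cardiac myosin light chain kinase (chr13:32884810-32968052, minus strand), had 88.2, 63.8, 81.2 and 78.6 CPM at 3E13, against 8.07, 40.7, 7.62 and 35.0 CPM in cKO and 167 to 253 CPM in WT. The cKO hearts again fell into 2 pairs, here with 177 and 257 lowest, and the treated hearts lay between cKO and WT. Mylk4 rose by 1.77 (± 0.43 SE, adjusted p = 0.0201). The ventricular light chains Myl2 and Myl3 rose by 0.92 and 0.91, cardiac troponin I (Tnni3) by 0.86, and Cap2, a cyclase-associated protein of actin turnover, by 0.42. Calls of Myl2, Myl3 and Tnni3 held in 2 or 3 of the 8 fits that left out an animal. Myh6, the α-myosin heavy chain whose promoter drives the Cre, had 12506 to 16215 CPM at 3E13, against 2907 to 10530.1 CPM in cKO and 15198 to 17263 CPM in WT, with an adjusted p of 0.0533 that became 0.0177 without cKO 177. Thick filament genes gave 6 rises without that animal.

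Of the 11 genes of the Z-disc and muscle quality control, only Ky was called, and 2 without cKO 177. Ky, the kyphoscoliosis peptidase, had 24.6, 10.5, 22.5 and 28.8 CPM at 3E13, against 1.85, 5.87, 7.17 and 4.02 CPM in cKO and 30.8 to 38.9 CPM in WT. Animal 182, the treated heart with the least transgene, had the lowest treated value, and even it exceeded all of cKO. Ky rose by 2.19 (± 0.34 SE, adjusted p = 0.00234). In the desmosome and intercalated disc list (median 0.15) the single call (2 without cKO 177) was a fall, that of Tmem43, a nuclear envelope protein whose mutation also causes ARVC, with 17.1 to 24.0 CPM at 3E13, against 25.6 to 34.0 CPM in cKO and 12.9 to 18.1 CPM in WT (−0.48 ± 0.13 SE, adjusted p = 0.0277). Nrap, an actin-binding protein of the myofibril ends, had 767 to 1047 CPM at 3E13 and 558 to 743 CPM in cKO (0.47 ± 0.15 SE, adjusted p = 0.0555). The medians of the desmosome, gap junction, calcium and Z-disc lists turned negative on log2(TPM + 1), at −0.20, −0.25, −0.01 and −0.07, where the median gene stood at −0.32.

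The wall stress genes did not move as a block. Of 9 tested, Ctgf, Postn and Edn1 fell and none rose, with a list median of −0.11. Nppa, the atrial natriuretic peptide, had 133, 279, 137 and 129.9 CPM at 3E13, against 210.0, 165, 549 and 189 CPM in cKO and 7.29 to 58.3 CPM in WT. Treated and vehicle-treated knockouts overlapped (−0.71 ± 0.54 SE, adjusted p = 0.413), and Nppa was still 2.35 above WT at 3E13 (adjusted p = 0.0301). Edn1, which encodes the vasoconstrictor endothelin-1, fell by 0.75 (adjusted p = 0.0307), with 3.58 to 6.20 CPM at 3E13 and 6.41 to 10.7 CPM in cKO.

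Genes of mitochondrial respiration rose in part of the members of every complex in the count fit. Called rises were 8 of 24 nuclear genes of complex I, 3 of 14 of complexes II and III, 4 of 14 of complex IV and 5 of 15 of complex V, with medians of 0.59, 0.53, 0.50 and 0.57 and no falls. In that order the rises were 4, 2, 2 and 1 with length offsets, and 1, 0, 1 and 0 on log2(TPM + 1), where medians were 0.19, 0.15, 0.07 and 0.19 and 1 gene of complex IV fell. Without cKO 177, complex I gave 14 rises and complexes II and III gave 5. Ndufa12, a complex I subunit, had 251, 273, 286 and 278 CPM at 3E13, against 92.7, 190.0, 157 and 172 CPM in cKO and 288 to 329 CPM in WT. Its treated range lay above cKO and just below WT, a rise of 0.83 (± 0.16 SE, adjusted p = 0.00676). Cyc1, the cytochrome c1 of complex III, had 139 to 155 CPM at 3E13, against 42.5 to 96.6 CPM in cKO, and rose by 0.84 (adjusted p = 0.0158). Cox7a1, the muscle form of a complex IV subunit, rose by 0.92 (adjusted p = 0.0125), and Atp5e and Atp5o of the ATP synthase by 0.53 and 0.63.

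The mitochondrial genome gave the same direction. Its transcripts made up 30.9% ± 0.92 of all counts at 3E13, 23.7% ± 3.94 in cKO (SD, n = 4 each) and 35.4% ± 1.70 in WT (n = 5). The difference of 7.18 percentage points between 3E13 and cKO had an exact permutation p of 0.0286 (two-sided), the smallest that 4 against 4 allow, and the share at 3E13 was below WT (exact permutation p = 0.00794, also the smallest possible). Library 177 had the lowest share, 18.17%, and the difference was 5.34 points without it. Of the 13 protein genes of this genome 12 had a positive difference (median 0.68). Of these mt-Nd3, mt-Nd4 and mt-Co1 were called, with rises of 0.77, 0.78 and 0.73. The calls of mt-Nd4 and mt-Co1 were kept in 2 of the 8 fits that left out an animal. The exception to the direction was mt-Co3, at −0.60 (adjusted p = 0.336), and mt-Co2 stood at 0.11 (adjusted p = 0.942). The nuclear gene listed as Gm28438 (chromosome 1), annotated as a transcribed pseudogene, was among the largest rises. It had 187 to 410.1 CPM at 3E13 and 23.2 to 119 CPM in cKO (2.07 ± 0.38 SE, adjusted p = 0.00551). How reads were divided between it and genes of the mitochondrial genome was not tested, so its value is uncertain.

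Fuel genes differed by pathway. Of 25 genes of the citric acid cycle and its regulators 5 rose (median 0.51), and 10 without cKO 177. Suclg1 (succinyl-CoA ligase), Fh1 (fumarase) and Mdh2 (malate dehydrogenase) rose by 0.62, 0.54 and 0.59. Of 20 glycolytic genes 3 rose (median 0.12), and 6 without 177, but the list median was −0.23 on log2(TPM + 1). Hk2, the insulin-regulated hexokinase of muscle, had 303 to 333 CPM at 3E13, against 159 to 259 CPM in cKO and 357 to 413 CPM in WT, and rose by 0.67 (± 0.14 SE, adjusted p = 0.00856). The fatty acid genes had a median of 0.43 without a call. By edgeR 5 of them were higher and 1 lower at an unadjusted p under 0.05, and DESeq2 called 3. Pdk4, the kinase that shuts pyruvate dehydrogenase, had 258, 88.3, 233 and 145 CPM at 3E13, against 55.4, 1073, 88.4 and 1433 CPM in cKO. Animals 180 and 264 were an order of magnitude above 177 and 257, and Pdk4 did not pass (adjusted p = 0.157).

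**Figure D3:**
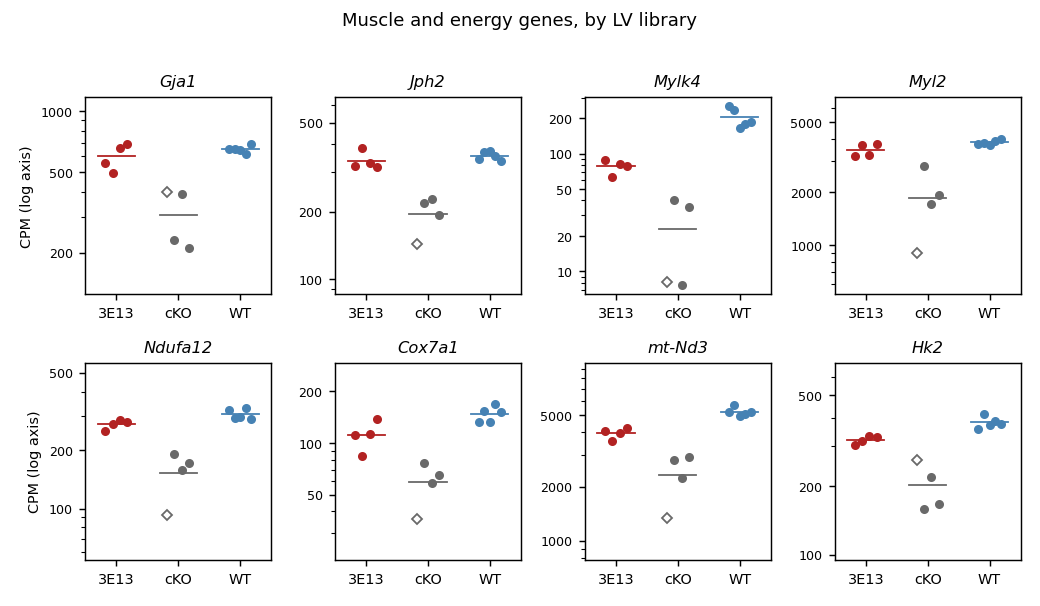
CPM of muscle and energy genes in each LV library (log axis), with 3E13 left, cKO in the middle and WT right, a point for each animal, a bar for the mean and an open diamond for cKO 177. Gja1 lies at 496 to 689 CPM at 3E13 and 212 to 401 CPM in cKO, and in several panels the open diamond is the lowest cKO point.

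Matrix genes fell together. Of 19 collagens 12 fell and none rose (median −1.06), of 15 collagen processing genes 5 fell (−0.84), of 23 proteoglycans and matricellular proteins 12 fell (−1.33), and of 13 genes of matrix turnover 5 fell (−1.39). The collagen genes summed to 2168 to 3102 CPM at 3E13, against 3295 to 8576 CPM in cKO and 1105 to 1494 CPM in WT. The whole range at 3E13 lay between the other groups. Beside this, the 10 activated fibroblast markers summed to 299 to 504 CPM at 3E13, against 487 to 1745 CPM in cKO and 141 to 176 CPM in WT, and the 12 resting fibroblast markers to 827 to 1301 CPM at 3E13, against 626 to 2139 CPM in cKO, with falls in 2 of 12 (6 of 12 without 177). The part of fibroblast number in the falls was not tested.

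Col8a1, a short-chain collagen of vessel wall and scar (chr16:57444621-57575100, minus strand), had 87.9, 84.5, 66.2 and 55.6 CPM at 3E13, against 180.2, 165, 228 and 342 CPM in cKO and 17.4 to 28.6 CPM in WT. All treated hearts were below cKO and above WT. Col8a1 fell by 1.64 (± 0.27 SE, adjusted p = 0.00296) and remained 1.73 above WT (adjusted p = 0.00204). Col5a2, which helps to start collagen fibrils, fell by 1.77 and Col1a2, a chain of type I collagen, by 1.79. Col18a1, a basement membrane collagen and the precursor of endostatin, fell by 1.05 to 7.68 to 12.4 CPM at 3E13, against 14.3 to 33.6 CPM in cKO and 7.99 to 10.5 CPM in WT, and was not called against WT (0.17, adjusted p = 0.76).

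Cross-linking and processing enzymes gave a similar picture. Plod2, the lysyl hydroxylase of scar-type cross-links, had 22.3 to 27.4 CPM at 3E13, against 36.7 to 56.6 CPM in cKO and 24.0 to 30.6 CPM in WT, and fell by 0.84 (adjusted p = 0.00236). The lysyl oxidases Loxl1 and Loxl3 fell by 0.94 and 1.29, and Adamts2, which trims procollagen, by 1.16. These 3 were still higher than WT, by 1.41, 2.07 and 1.63.

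Thbs2, an anti-angiogenic thrombospondin (chr17:14885761-14914528, minus strand), had 38.3, 21.7, 37.3 and 32.4 CPM at 3E13, against 62.1, 81.3, 96.9 and 122 CPM in cKO and 28.1 to 35.9 CPM in WT. The treated and WT ranges lay over each other. Thbs2 fell by 1.48 (± 0.20 SE, adjusted p = 0.000853) with a difference from WT of 0.04 (adjusted p = 0.958). Its relative Thbs1, which activates latent TGF-beta, had 69.5, 69.0, 75.6 and 47.2 CPM at 3E13, against 778, 139, 217 and 269.6 CPM in cKO, a fall of 2.43 (± 0.53 SE, adjusted p = 0.012, and 1.67 with adjusted p = 0.0255 without 177, its highest library). Unlike Thbs2, Thbs1 was still 2.38 above WT (adjusted p = 0.0205). Sparc, a collagen-binding matricellular protein, fell by 1.26, the proteoglycan gene Bgn (biglycan) by 0.93 and Mfap5, of the elastic microfibrils, by 1.42.

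Turnover genes that fell included the proteases Mmp14 (by 1.39) and Mmp3 (by 1.73) and the protease inhibitor Timp3 (by 0.99). Of 10 markers of activated fibroblasts 4 fell and none rose (median −1.11). Fap, a surface protease, fell by 1.06 to 3.58 to 6.16 CPM at 3E13, against 7.72 to 14.7 CPM in cKO, and Wisp1 fell by 2.28. Postn, periostin, had 204, 389.8, 165 and 129 CPM at 3E13, against 374, 355, 635 and 1407 CPM in cKO and 20.4 to 35.2 CPM in WT, and animal 182 reached into the cKO range. Its fall of 1.64 was called (± 0.50 SE, adjusted p = 0.0479) and kept the call in 3 of the 8 fits that left out an animal, and Postn was 3.15 above WT. Lrrc15, a marker of the same list named after its values were seen, ran the other way, with 9.29, 8.94, 12.1 and 18 CPM at 3E13, against 0.448, 4.59, 2.52 and 8.37 CPM in cKO and 19.4 to 25.2 CPM in WT. Its difference of 1.61 was not called (adjusted p = 0.0565), but was with each group's own variance (2.26, adjusted p = 0.0375, limma), without cKO 177 (1.23, adjusted p = 0.0262) and on log2(TPM + 1) (0.79, adjusted p = 0.0238, limma).

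Of 18 genes of the TGF-beta pathway 6 fell and none rose (median −0.54), and both signalling receptors were among them. Tgfbr2, the ligand-binding type II receptor, had 75.2, 77.6, 67.6 and 66.2 CPM at 3E13, against 110.2, 107, 113 and 110.2 CPM in cKO and 47.7 to 57.2 CPM in WT. As with Tgfbr1, spread within each group was small beside the distance between groups, and Tgfbr2 fell by 0.62 (± 0.08 SE, adjusted p = 0.000746). Skil, a Smad-binding repressor that TGF-beta itself induces, fell by 0.61, and Ltbp3, which stores latent TGF-beta in the matrix, by 1.02. Both receptors and Skil stayed above WT, Tgfbr1 by 0.50, Tgfbr2 by 0.49 and Skil by 0.59. Ctgf, a matricellular target of the pathway, had 129, 282, 134 and 96.8 CPM at 3E13, against 408, 467, 384 and 524 CPM in cKO, and fell by 1.47 (adjusted p = 0.00488). Pdgfra, the receptor that marks cardiac fibroblasts, had 57.9 to 71.4 CPM at 3E13, against 103 to 120.1 CPM in cKO and 41.1 to 54.0 CPM in WT, and fell by 0.79 (adjusted p = 0.00144).

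**Figure D4:**
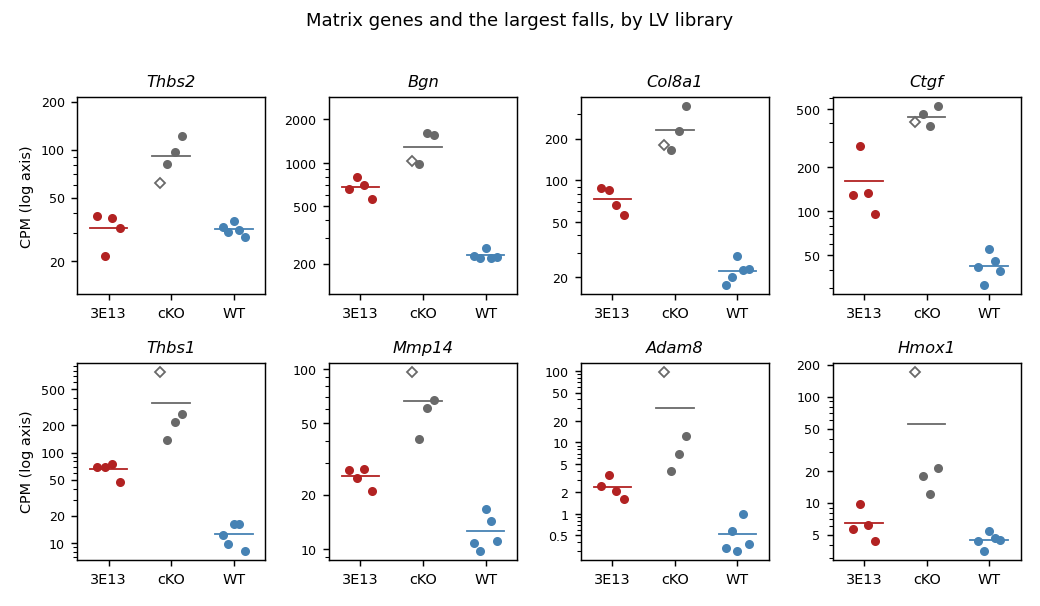
CPM of 6 matrix genes and of Adam8 and Hmox1, of leukocytes and haem breakdown, in each LV library (log axis), with 3E13 left, cKO in the middle and WT right, a point for each animal, a bar for the mean and an open diamond for cKO 177. Thbs2 at 3E13 (21.7 to 38.3 CPM) lies over WT (28.1 to 35.9 CPM), whereas Col8a1 at 3E13 (55.6 to 87.9 CPM) lies above WT (17.4 to 28.6 CPM).

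Immune genes moved in opposite directions, since macrophage genes fell while GTPases induced by interferon rose. Of 20 macrophage and monocyte markers 11 fell and none rose (median −1.08), and 7 fell without cKO 177 (median −0.53). Their summed level was 277 to 345 CPM at 3E13, against 349 to 1214 CPM in cKO and 151 to 185 CPM in WT, and the highest cKO sum without 177 was 582 CPM. Csf1r, the receptor on which macrophages depend, had 43.9, 35.5, 35.8 and 36.0 CPM at 3E13, against 128, 42.8, 77.5 and 75.0 CPM in cKO, and fell by 1.10 (± 0.23 SE, adjusted p = 0.0102). Vehicle animal 180 overlapped the treated hearts for Csf1r and 177 lay far above. Mrc1, the mannose receptor of resident macrophages, fell by 1.10 (adjusted p = 0.00662), with 41.5 to 62.5 CPM at 3E13 and 69.3 to 169 CPM in cKO. Gpnmb, a lysosomal glycoprotein of lipid-laden macrophages, had 2.44, 2.79, 2.39 and 1.97 CPM at 3E13, against 25.5, 6.95, 11.9 and 8.70 CPM in cKO and 0.284 to 1.11 CPM in WT. It fell by 2.47 (± 0.43 SE, adjusted p = 0.00424).

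In a list of 20 pattern receptors and adaptors 4 fell and none rose (median −0.52), and without cKO 177 3 fell (median −0.09). The calls were 3 endosomal RNA sensors and Cd14, and none of its cytosolic sensors was called. Tlr7, an endosomal sensor of single-stranded RNA, had 5.90, 9.31, 5.43 and 4.94 CPM at 3E13, against 27.1, 13.8, 15.2 and 16.2 CPM in cKO and 2.79 to 4.07 CPM in WT, without overlap, and fell by 1.50 (± 0.27 SE, adjusted p = 0.00453). Tlr8 and Tlr13, sensors of RNA in the same compartment, fell by 1.95 and 1.75, and Cd14, the co-receptor for lipopolysaccharide, by 2.41. Tlr13 lost its call without cKO 177 (by 0.88, adjusted p = 0.0631). The genes of the first complement component C1qa, C1qb and C1qc, which macrophages make, fell by 0.64, 0.85 and 0.69 and were still 1.13, 1.30 and 1.06 above WT. C1qa and C1qc lost their calls without 177 (adjusted p = 0.0928 and 0.102).

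Among called genes that averaged at least 5 CPM and did not overlap, the largest falls were of leukocyte and stress genes that were highest in 177. Adam8, a leukocyte metalloprotease, had 2.48, 3.47, 2.07 and 1.62 CPM at 3E13, against 96.9, 4.05, 6.87 and 12.1 CPM in cKO, and fell by 3.64 (± 0.87 SE, adjusted p = 0.0184). Without 177 its fall was 1.68 (adjusted p = 0.0328). Hmox1, the inducible haem oxygenase, had 5.65, 9.83, 6.12 and 4.33 CPM at 3E13, against 170.3, 17.8, 12 and 21.4 CPM in cKO, and fell by 3.10 (adjusted p = 0.0144), and by 1.40 without 177. Neither overlapped, although most of the size of the change came from 1 animal. Cytip, Emb and Rbm47 fell by 3.01, 2.55 and 2.29, and by 2.37, 1.48 and 1.51 without 177. Csf3r, the neutrophil receptor for G-CSF, was 60.0 CPM in 177 and 1.45 to 4.98 CPM in the other cKO hearts, with 1.40 to 3.58 CPM at 3E13, and its fall by 2.98 became 0.52 without 177, no longer called (adjusted p = 0.452).

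The interferon-inducible GTPases, proteins of the IRG and GBP families that interferon-gamma switches on strongly and that attack the vacuoles of intracellular pathogens, had the opposite change. Of 15 tested 10 rose and none fell, with a median of 1.30. Without cKO 177, 8 rose (median 1.08). Their summed level was 382 to 1006 CPM at 3E13, against 222 to 319 CPM in cKO and 249 to 445 CPM in WT. The treated sums thus lay above cKO and partly above WT. Against WT only 2 of the 15 were called higher at 3E13, with a median of 0.87. The median of cKO over WT was −0.40. The promoters of the members that lead the change are shown first, because the same pair of letters recurs in them. They are the 120 bases before the start of the gene in RefSeq GRCm38.p6, 5′ to 3′ on the strand of the gene, with capitals marking matches to the interferon-stimulated response element (ISRE, searched as GAAA, any 2 bases and GAAA again) or the gamma-activated site (GAS, searched as TTCNNNGAA) on either strand. In the order printed they are chr11:58199436-58199555 (plus), chr11:58214857-58214976 (plus), chr11:58183723-58183842 (plus), chr11:49064213-49064332 (minus), chr11:48927183-48927302 (minus), chr11:48871421-48871540 (minus) and chr3:142530216-142530335 (plus).
Igtp: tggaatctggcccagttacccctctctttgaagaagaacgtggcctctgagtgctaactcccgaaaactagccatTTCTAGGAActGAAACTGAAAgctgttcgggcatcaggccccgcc
Irgm2: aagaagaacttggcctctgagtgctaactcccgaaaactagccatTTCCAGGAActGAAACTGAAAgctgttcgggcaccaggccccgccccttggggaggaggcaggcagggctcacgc
Gm12250: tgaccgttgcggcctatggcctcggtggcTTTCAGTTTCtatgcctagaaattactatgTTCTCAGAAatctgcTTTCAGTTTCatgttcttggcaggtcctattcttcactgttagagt
Tgtp2: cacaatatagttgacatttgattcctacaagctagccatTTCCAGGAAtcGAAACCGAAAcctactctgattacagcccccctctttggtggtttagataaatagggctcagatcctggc
Gm12185: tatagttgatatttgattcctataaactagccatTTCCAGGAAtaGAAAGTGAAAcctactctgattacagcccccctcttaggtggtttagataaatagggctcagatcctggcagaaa
Irgm1: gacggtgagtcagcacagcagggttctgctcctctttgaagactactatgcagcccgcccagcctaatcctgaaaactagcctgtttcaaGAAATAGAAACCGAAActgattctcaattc
Gbp7: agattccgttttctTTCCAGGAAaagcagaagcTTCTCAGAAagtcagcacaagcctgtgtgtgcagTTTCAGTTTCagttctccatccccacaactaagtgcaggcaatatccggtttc

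In Igtp, Irgm2, Tgtp2 and Gm12185 a GAS and an ISRE stood side by side, with 11 bases from the start of the one to the start of the other. Gm12250 had 2 ISRE matches around a GAS, 15 bases from the nearer, Gbp7 had 1 ISRE and 2 GAS matches, and Irgm1 had overlapping ISRE matches and no GAS. Shares were counted in the whole windows, 250 bases before to 50 after the start, of which 120 bases are printed above. Among the 9 GTPases on the list with a window all 9 held an ISRE, 6 a GAS and 6 both, whereas of 27025 genes with a window 3.99% held an ISRE, 9.55% a GAS and 0.54% both. Of 16 type I interferon-stimulated genes with a window 9 held an ISRE, 4 a GAS and 2 both. Such matches describe letters and not binding.

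Igtp, also called Irgm3 (chr11:58089840-58098417 in GRCm39, plus strand), had 42.8, 22.5, 22.1 and 73.2 CPM at 3E13, against 5.01, 7.01, 8.64 and 6.25 CPM in cKO and 7.94 to 16.5 CPM in WT. The 4 treated hearts exceeded all 9 others, with animal 253 highest. Igtp rose by 2.58 (± 0.40 SE, adjusted p = 0.0025) over cKO, and was 1.85 above WT (adjusted p = 0.0139). In right ventricles, which were not part of the fit, the plain CPM of Igtp was 48.7 and 79.6 in the treated animals 181 and 253. It was 7.19 to 18.3 in the 4 cKO mice and 7.37 to 19.2 in 3 WT mice. Animals 181 and 253 also had the highest treated Igtp in LV, so these right ventricles are not independent of the LV values. Irgm2, Irgm1, Gm12250, Igfbp7, Lmod3 and Tgfbr1 did not overlap there between treated and cKO animals. Lrrc4b did, with 6.19 and 6.01 CPM in 181 and 253 against 2.44 to 6.71 CPM in cKO. All of these genes were without overlap in LV. The share of all genes without overlap in right ventricles was not counted, so over 2 treated and 4 cKO libraries this is a description only. In LV, Irgm2, the neighbour of Igtp (chr11:58090444-58113615, plus strand), had 66.9, 40.0, 43.7 and 106 CPM at 3E13, against 13, 17.7, 21.7 and 13.9 CPM in cKO. It rose by 1.95 (adjusted p = 0.00596). The annotations of Igtp and Irgm2 overlap on the same strand, so how their reads were divided is uncertain.

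Gm12250, the gene with the RefSeq synonym Irgb10 (chr11:58074623-58080267, plus strand), varied little among cKO hearts and among WT hearts. It had 5.70, 5.26, 4.13 and 8.22 CPM at 3E13, against 0.952, 0.775, 0.960 and 0.981 CPM in cKO and 0.779 to 1.11 CPM in WT. The cKO and WT values lay over each other, and every treated heart was several times higher. Gm12250 rose by 2.66 (± 0.35 SE, adjusted p = 0.000853, and 0.0386 with a variance for each group). Tgtp2 had 28.4, 13.4, 25.4 and 54.4 CPM at 3E13, against 3.95, 9.31, 12.1 and 3.14 CPM in cKO and 12 to 26.8 CPM in WT, a rise of 2.09 (adjusted p = 0.0119) that was not called against WT (0.87, adjusted p = 0.309). Gm12185 (Irgb2b1) rose by 4.00, and it overlaps Tgtp1, a near-identical copy of Tgtp2, so values of these 3 are uncertain one by one.

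Irgm1, a regulatory member that guards the cell's own membranes, rose by 1.12 with 37.2, 37.3, 27.0 and 56.6 CPM at 3E13, against 13.7, 19.3, 21.8 and 18 CPM in cKO and 13.7 to 18.8 CPM in WT (adjusted p = 0.00647). Gbp7, a guanylate-binding protein, rose by 1.07 to 28.2 to 58.8 CPM at 3E13, against 14.4 to 27.2 CPM in cKO. Among called genes that averaged at least 5 CPM and did not overlap, several of the largest rises were also of this kind, beside BC023105, a long noncoding gene that rose by 4.52. Gm4841 (Ifgga3 in RefSeq) had 20, 3.84, 12 and 39.8 CPM at 3E13, against 0.364, 0.978, 1.38 and 1.14 CPM in cKO, and rose by 4.29 (± 0.77 SE, adjusted p = 0.00513). F830016B08Rik (Ifgga4) had 209, 79.6, 91.3 and 402 CPM at 3E13, against 5.99, 19.7, 18.9 and 25.1 CPM in cKO, and rose by 3.49 (± 0.55 SE, adjusted p = 0.00293, and 0.03 with a variance for each group). Both were highest in 253 and lowest in 182, the animals with the most and the least human PKP2 in CPM, which over 4 animals is a description only. Gbp4, named after its values were seen, was listed at 0 in all 4 cKO hearts and at 0, 0, 21.2 and 14.2 CPM at 3E13, with 1.35 to 11.2 CPM in 4 of the 5 WT hearts.

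The change did not extend evenly to other interferon genes. Of 23 type I interferon-stimulated genes 1 was called (list median 0.23). Ifit1, a restriction factor typical of type I interferon, had 10.3 to 20.4 CPM at 3E13 and 6.05 to 15 CPM in cKO (0.73 ± 0.26 SE, adjusted p = 0.0763), and Irf1, a transcription factor that interferon-gamma induces early, had 13.3 to 29.5 CPM at 3E13 and 5.46 to 20.6 CPM in cKO (0.88 ± 0.34 SE, adjusted p = 0.103).

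Of 18 genes of MHC class I presentation 5 rose and none fell (median 0.59), with 3 rises without cKO 177 and 1 with a variance for each group. Psme1 and Psme2, which form the PA28 cap of the proteasome, rose by 0.67 and 0.60, Psmb10, an immunoproteasome subunit, by 0.68, and B2m, the light chain of class I molecules, by 0.70. B2m had 465, 404, 408 and 659.6 CPM at 3E13, against 286, 257, 334 and 319 CPM in cKO and 183 to 344 CPM in WT. All treated hearts were again highest, but the B2m call was lost without cKO 177 (adjusted p = 0.0512). The class II list stayed near 0 (median −0.04, 1 of 10 called, Ctss, which fell by 1.55 and was not called without 177, at adjusted p = 0.0954).

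Lymphocyte transcripts were few. The 13 tested T, NK and B cell markers had a median of 0.66 with none called by edgeR or DESeq2 and none at an unadjusted p under 0.05, and summed to 3.26 to 20.1 CPM at 3E13, against 4.21 to 11.6 CPM in cKO and 2.74 to 5.61 CPM in WT. Cd8a, of cytotoxic T cells, had 1.24, 0.368, 1.50 and 2.58 CPM at 3E13, against 0.560, 0.270, 1.29 and 0.425 CPM in cKO (adjusted p = 0.294), and the T cell receptor gene Cd3e 2.11, 0.421, 1.99 and 3.36 CPM at 3E13, against 1.46, 0.809, 1.65 and 1.08 CPM in cKO (adjusted p = 0.423). In both genes 253 was the highest and 182 the lowest of the treated hearts, as in Tgtp2, Irgm2, Gm4841 and F830016B08Rik. In Igtp, Gm12250 and Irgm1, 253 was also the highest, but 252 and not 182 was the lowest. Cd3e, though not different from cKO, was 2.00 above WT (adjusted p = 0.0447). The part of lymphocytes in the GTPase rises was not tested.

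**Figure D5:**
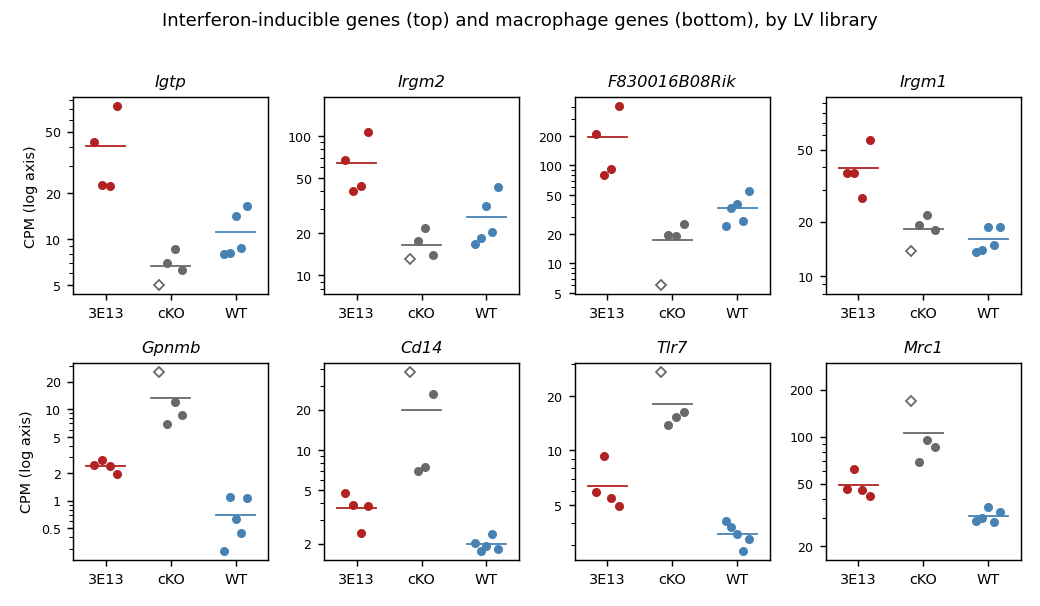
CPM of macrophage, interferon and GTPase genes in each LV library (log axis), with 3E13 left, cKO in the middle and WT right, a point for each animal, a bar for the mean and an open diamond for cKO 177. Igtp lies at 22.1 to 73.2 CPM at 3E13, above cKO (5.01 to 8.64 CPM) and WT (7.94 to 16.5 CPM), whereas Tlr7 at 3E13 (4.94 to 9.31 CPM) lies below cKO (13.8 to 27.1 CPM).

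The calls in the stress and cell cycle lists stand beside a share of 11.7% of all genes called (5.45% higher and 6.21% lower). Of 22 genes of the integrated stress response 2 fell, Nupr1 (by 1.03) and Cebpb (by 1.49, not called without 177 at adjusted p = 0.0934), and of 16 p53 targets and apoptosis genes Cdkn1a and Trp53inp1 fell and Aen rose. Cdkn1a, the p21 inhibitor of cyclin-dependent kinases, had 13.5, 53.1, 30.8 and 15.9 CPM at 3E13, against 47.7, 134, 41.8 and 231 CPM in cKO and 4.10 to 10.8 CPM in WT, a fall of 2.01 (± 0.56 SE, adjusted p = 0.0352). Trp53inp1 had 21.7 to 23.4 CPM at 3E13, against 20.4, 97.1, 32.0 and 134 CPM in cKO, and fell by 1.64 (± 0.42 SE, adjusted p = 0.0243). In both, cKO 180 and 264 were the 2 highest, and the calls of Cdkn1a, Nupr1 and Cebpb held in 3 of the 8 fits that left out an animal. Among 20 cell cycle genes only Ccnd2 was called (2 genes without 177), and the list median of −1.02 became 0.12 without cKO 177. Ccnd2, a D-type cyclin, rose by 0.55 to 287 to 309.6 CPM at 3E13, against 129 to 244 CPM in cKO.

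The same pair of cKO animals was highest for Per1, a clock gene that also answers to glucocorticoids, with 26.9, 104, 47.0 and 27.1 CPM at 3E13, against 126, 231, 36.4 and 329.6 CPM in cKO (−1.82 ± 0.54 SE, adjusted p = 0.0421, and 0.0546 without 177). Of 17 clock genes Per1 and Ciart fell and Clock rose by 0.41. The immediate early genes Fosl2 and Myc fell by 1.35 and 1.41, and both lost their calls without 177 (adjusted p = 0.0593 and 0.127). Time of day at collection is not given in the sources used here.

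Markers of other cell types differed from list to list. The 13 endothelial markers summed to 1325 to 1354 CPM at 3E13, against 1097 to 1839 CPM in cKO, with 1 call, Kdr, the main VEGF receptor of endothelium, which rose by 0.77 (adjusted p = 0.0183). Without 177, 3 other endothelial markers fell. Kdr had 258, 159, 264 and 279 CPM at 3E13, against 105, 159.9, 175 and 124 CPM in cKO and 208 to 265 CPM in WT, with treated animal 182 within the cKO range. Of 11 smooth muscle and pericyte markers 3 fell, Tagln by 1.33, Myh11 by 0.82 and Pdgfrb by 0.55. Tagln, transgelin, had 12.3, 5.99, 11.8 and 14.3 CPM at 3E13, against 29.7, 23.1, 26.2 and 33.0 CPM in cKO and 13 to 27.5 CPM in WT, so that 3 of the 4 treated hearts were below every WT heart. Myh11 was called below WT as well (−1.21, adjusted p = 0.0119). Of 6 Schwann cell markers 3 fell and none rose (median −0.97), and 2 were called below WT. They summed to 7.31 to 11.3 CPM at 3E13, against 14.5 to 22.8 CPM in cKO and 15.7 to 20 CPM in WT, so that every treated heart was below every cKO and WT heart. Cdh19, a cadherin of these cells, fell by 0.72 (adjusted p = 0.0372), a call kept in 1 of the 8 fits that left out an animal. With each group's own variance no Schwann cell marker was called.

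Red blood cell genes fell in 2 of 7 (median −1.48), and in 4 without 177. Slc4a1, the anion exchanger of red cells, had 0.578, 0.736, 0.770 and 0.961 CPM at 3E13, against 1.09, 14.7, 6.42 and 6.57 CPM in cKO and 0.270 to 1.23 CPM in WT, and fell by 3.23 (adjusted p = 0.0104). Red cell transcripts thus varied among the cKO samples, and the part of blood in the leukocyte genes was not tested. The exception was 177, which had the lowest red cell sum of the cKO hearts (21.0 CPM) and the highest neutrophil and mast cell sum (120.1 CPM, where the others had at most 15.5 CPM). Adipocyte markers were mostly below the filter, with 3 of 10 tested, none called by edgeR or DESeq2 and 2 lower at an unadjusted p under 0.05. Of 10 epicardial markers 4 were tested, with the same result. Without cKO 177, 1 marker of each list fell.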

How the data were processed

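RNA of left and right ventricles was sequenced as 2 × 50 base pairs with a stranded kit that removes ribosomal RNA, and the labels also name polyA RNA. Per the labels and the study's methods, the authors trimmed reads with fastp, quantified them with Salmon 1.8.0 against GENCODE transcripts of GRCm39 and summed them to genes with tximport. The deposited expected counts (19.6% of values not whole at a tolerance of 0.01) were rounded here, and the deposited TPM and transcript length (in bases, a score with no fixed range) served for alternatives. The row with no gene name, at most 0.000971% of counts, was left out, and no column of per-sample values was unused (0).

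All 16 LV libraries (WT, cKO, and 2 TN-401 doses) were fitted in R 4.3.3 with edgeR 4.0.16 (filterByExpr, TMM, robust quasi-likelihood, 1 coefficient per group, 12 residual degrees of freedom), and p-values were adjusted by Benjamini-Hochberg at 0.05. Shares were compared by exact two-sided permutation tests over animals. Alternatives were other scaling, no filter, length offsets, protein-coding genes only, the compared groups alone, a sex term, DESeq2 1.42.0, limma 3.58.1 (voom with group variance, and log2 TPM with pseudocounts of 1 and 0.1) and leaving out each animal. The fits were also run on simulated counts in which all groups had the same spread for a given gene. The groups here differed in spread, so that run cannot show how the fits behave on such data. The study itself compared groups pairwise on log2(TPM + 1).

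The named genes were the label checks, the 10 largest rises and falls among called genes without overlap and with a mean of at least 5 CPM, up to 4 genes of each list by adjusted p, and up to 15 genes also called on the compared groups alone. Genes outside this rule are named as such, and some genes that met it are not reported here. Members, lists and rule were chosen with earlier results of these data known. Depth was 21013323 to 27919280 estimated reads per compared library, and a count of 0 allows up to 3 counts, for counting error only. Coordinates are of GRCm39 (GENCODE M39, which held 33105 of 39152 symbols), and promoter sequences and synonyms of RefSeq GRCm38.p6.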

Additional observations from a re-analysis of the deposited data

Results flagged for a closer look

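Samples far from the rest of their group were looked for in the 3E13 and cKO groups of 4 LV libraries, over the genes looked at, 286 groups in all, of which 14 held one. Chance flags about 1 in 20 groups.

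Of these, 5 came from cKO animal 177. It was the highest cKO library for Adam8 (96.9 CPM, others 4.05 to 12.1), for Hmox1 (170.3 CPM, others 12 to 21.4), for Emb (26.7 CPM, others 3.54 to 6.31) and for Csf3r (60.0 CPM, others 1.45 to 4.98), and the lowest for Cyc1 (42.5 CPM, others 90.2 to 96.6). Among treated hearts, animal 182 was highest for Srl (983 CPM), Myl3 (2085 CPM), Cox10 (57.0 CPM), Nppa (279 CPM) and Ciart (6.26 CPM). Animal 253 was highest for Lrrc4b (13.2 CPM), and 181 was highest for Csf1r (43.9 CPM). The other cKO samples set apart were 257 for Nppa (549 CPM, the highest) and 180 for Gm12250 (0.775 CPM, the lowest).

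Right ventricles were outside the comparison. There the lower of the 2 treated animals had 48.7 CPM of Igtp, above the highest cKO right ventricle at 18.3 CPM. Igtp was the only gene looked at for this flag, and the same animals had the highest treated Igtp in LV.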

How the results depend on the processing

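The count of genes called against cKO, 1914, stayed within 1.5 times of itself with a sex term, length offsets, RLE factors, only protein-coding genes or every gene unfiltered (1353 to 1904). It was 54 on the compared groups alone (all shared with the 1914), 301 there without cKO 177, 859 with a variance for each group, 2875 with DESeq2, 3374 on log2(TPM + 1) and 3116 on log2(TPM + 0.1), where 2981 of the calls were falls. Leaving out 1 animal gave 712 to 2675 calls, the lower counts without 3E13 181 (1002), 252 (932) and 253 (712). The count against WT, 407, was 1773 on the compared groups alone, 921 with DESeq2, 1191 with a variance for each group, 156 on log2(TPM + 1), 195 on log2(TPM + 0.1) and 178 to 336 when an animal was left out. The cause of these shifts was not tested. The fits on the compared groups alone also held fewer samples, and there the count was lower against cKO and higher against WT.

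The difference in mitochondrial share, 7.18 points, ranged over 5.34 to 8.20 when an animal was left out, with an exact permutation p of 0.0571 without 3E13 182 or without 253. It was 6.09 on deposited TPM. Of 142 genes looked at, 126 were called. Of these, 126 kept the call with RLE factors and with DESeq2, 106 without a filter, 109 with length offsets, 80 with a variance for each group, 22 on the compared groups alone, 92 on log2(TPM + 1), 114 without cKO 177 and 70 without 3E13 253. Directions turned for Esr1, not called, with length offsets (0.19), and for Aen on both TPM scales (−0.022 on each). No paired analysis was possible because the compared groups hold different animals and share no replicate number.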
